A study of Homo sapiens with 21 samples.

Results

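The comparison described here sets HEK 293FT cells given a short hairpin RNA (shRNA) against B4GALNT1 beside cells given a non-targeting (NT) shRNA. It uses 6 of the 21 libraries of the series, 3 with the B4GALNT1 shRNA and 3 with the NT shRNA, chosen by their labels alone. HEK 293FT is a human embryonic kidney line that carries the large T antigen of SV40. All 6 libraries came from cells transfected with an shRNA plasmid by Lipofectamine 2000, without RfxCasR, and total RNA was taken after 48 h. The labels name each hairpin by its target only, and no hairpin sequence was used here. The other 5 groups, given as background, had 3 libraries each: an ANXA4 shRNA, the RNA-cutting CRISPR nuclease RfxCasR with an NT or a B4GALNT1 guide RNA (gRNA), and RfxCasR with a guide array that was NT or against ANXA4. ANXA4 was at 3.03 FPKM in the libraries labelled NT array and at 7.03 FPKM in those labelled ANXA4 array, against the labels. The arrays enter no tested contrast here, but they share in the estimate of the spread and in the filter on low values. Their libraries are also among the 18 others beside which genes are placed below, and placement without them was not examined. Without the arrays in the fit 2778 genes were higher and 3908 lower instead of 2523 and 3554. The count that differed from the guide was then 4808 instead of 4078. The labels give replicate numbers and nothing on separate cultures, so a p-value here reflects library-to-library spread only, part of which may be technical.

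B4GALNT1 encodes the N-acetylgalactosaminyltransferase that turns GM3, GD3 and lactosylceramide into GM2, GD2 and GA2. Gangliosides are sialic acid-bearing glycosphingolipids of the outer leaflet of the plasma membrane, built sugar by sugar in the Golgi on a ceramide anchor. A hairpin RNA is exported by exportin 5, cut by Dicer and loaded into an Argonaute protein, which then represses messenger RNAs that pair with the loaded strand. A strand can pair with its target over its full length, and with other transcripts through its seed near the 5′ end.

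Depth recovered from the deposited FPKM values (fragments per kilobase of exon and per M fragments) was 22.7 to 29.0 M reads in these 6 libraries. Replicates within each group correlated at 0.994 to 0.995 over 13679 genes, which are not independent replicates. Their median SD was 0.066 with the B4GALNT1 shRNA and 0.063 with the NT shRNA on the log2(FPKM + 1) scale. Of 15 genes that mark HEK 293 cells, 14 were above 0 in every one of the 6 libraries and DCX was at 0 throughout. Their summed level was 675.2 to 694.7 FPKM with the NT shRNA and 878.5 to 891.3 with the B4GALNT1 shRNA, and vimentin alone (VIM) was at 388.1 to 564.0 FPKM over the 6. Of 13 of these markers that passed the filter on low values, 6 were called higher (0.50 log2 for VIM), beside 18.4% of all genes. Their part in the results below was not tested. The 15 markers of blood, fibroblast and endothelial cells summed to 15.9 to 16.6 and 14.4 to 16.5 FPKM in those groups. ACTA2 was called lower (2.13 to 1.45 FPKM), a call lost under other settings. HBB was at 0 in all 6 libraries, PTPRC and CD3E were at 0 in 5 of them, and COL1A1, at 7.73 to 8.74 FPKM, was the highest. In bulk RNA, fewer cells of a type and less RNA per cell cannot be told apart.

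B4GALNT1 (NM_001478, hg19 chromosome 12, 58019678 to 58027022, minus strand) was a low transcript in these cells. Its level was 4.04, 4.27 and 3.92 FPKM in the 3 NT shRNA libraries and 2.96, 2.79 and 2.59 FPKM in the 3 libraries with its own shRNA. The groups did not overlap, and the mean was 31.8% lower with the shRNA. The difference was -0.43 ± 0.075 log2, adjusted p = 0.000131 in limma, where ± in a log2 difference marks the SE throughout. With 3 libraries against 3 an exact two-sided permutation test cannot go under 0.1, and it gave p = 0.1. The authors' deposited table gives -0.50 log2 with an adjusted p of 0.000653. Ordered by mean, B4GALNT1 stood at 2.21 ± 0.167 FPKM (SD, n = 3) with the RfxCasR B4GALNT1 gRNA and 2.78 ± 0.183 with the B4GALNT1 shRNA. Next came 4.08 ± 0.179 with the NT shRNA, 5.3 ± 0.249 in the ANXA4 array, 5.64 ± 0.156 with the ANXA4 shRNA, 5.89 ± 0.907 with the NT gRNA and 6.21 ± 0.303 in the NT array. The NT shRNA libraries were thus the lowest of the 5 groups that received no B4GALNT1 reagent, and against the ANXA4 shRNA the B4GALNT1 shRNA libraries were lower by a larger margin (-0.81 ± 0.075 log2, adjusted p = 4.34e-08 in limma). Neighbours among the 4 highest groups lay within the SD of the NT gRNA libraries.

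**Figure D1:**
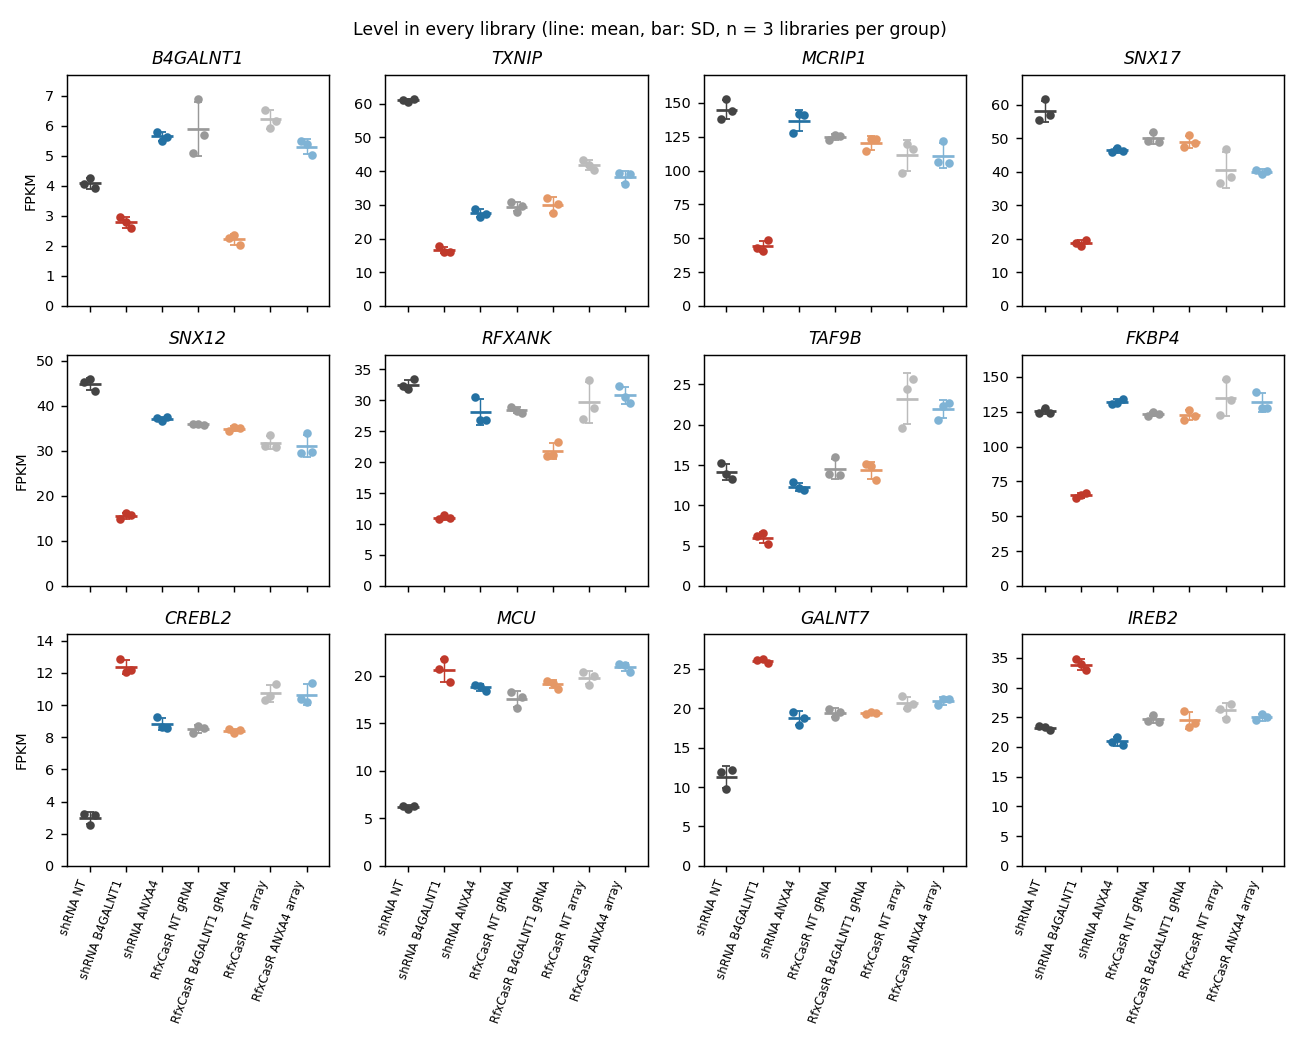
FPKM of 12 genes in each of the 21 libraries (points), with the group mean (line) and SD (bar, n = 3), for the 7 groups along the horizontal axis. MCRIP1, SNX17, SNX12, RFXANK, TAF9B and FKBP4 were lowest with the B4GALNT1 shRNA, while CREBL2 and MCU were lowest with the NT shRNA. GALNT7 and IREB2 were highest with the B4GALNT1 shRNA.

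Of the 13 ganglioside synthesis genes measured, 7 fell, B4GALNT1 included, and 2 rose. Over all 13679 genes 26.0% were called lower and 18.4% higher by limma at an adjusted p under 0.05. The list median was -0.31 log2, beside -0.038 for all genes tested. UGCG, the ceramide glucosyltransferase that starts the series, rose from 5.85, 5.5 and 6.28 FPKM to 7.01, 7.39 and 7.18 FPKM (0.25 ± 0.062 log2, adjusted p = 0.00261 in limma). All B4GALNT1 shRNA libraries lay above all NT shRNA libraries, and the other 5 group means were 5.68 to 7.03 FPKM.

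Lactosylceramide is made by B4GALT5 and its homolog B4GALT6, and these moved in opposite directions. B4GALT5 went from 10.2, 9.65 and 10.1 FPKM with the NT shRNA to 14.1, 13.2 and 13 FPKM with the B4GALNT1 shRNA (0.39 ± 0.052 log2, adjusted p = 4.84e-06 in limma). B4GALT6 went from 7.39, 7.91 and 7.47 FPKM to 3.95, 4.37 and 4.42 FPKM (-0.71 ± 0.066 log2, adjusted p = 5.83e-08 in limma), and its 3 B4GALNT1 shRNA libraries lay below all 18 other libraries. The B4GALT6 level in the other 5 groups was 6.94 to 8.42 FPKM. The summed change of the pair was not tested.

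Of the 8 sialyltransferases of the pathway that were measured, 4 fell and 4 did not pass the test. ST3GAL5, the GM3 synthase that makes the main substrate of B4GALNT1, was at 5.71, 5.57 and 6.68 FPKM with the NT shRNA and at 2.73, 2.65 and 3.67 FPKM with the B4GALNT1 shRNA (-0.80 ± 0.102 log2, adjusted p = 3.13e-06 in limma). The NT shRNA libraries lay above all others of the series, and the other 5 group means were 3.2 to 4.77 FPKM. ST3GAL3 fell from 12.7 to 8.13 FPKM (-0.59 ± 0.097 log2, adjusted p = 6.58e-05 in limma), again with the NT shRNA above all other libraries. ST6GALNAC6, which makes alpha-series gangliosides, fell from 35.6 to 26.7 FPKM (-0.41 log2), while ST6GALNAC3 fell from 4.51 to 3.22 (-0.38 log2) and was below all 18 other libraries.

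Downstream of B4GALNT1, B3GALT4 adds galactose to GM2 to give GM1. It was at 1.15, 1.15 and 1.23 FPKM with the NT shRNA and 0.39, 0.994 and 0.96 FPKM with the B4GALNT1 shRNA (-0.31 ± 0.121 log2, adjusted p = 0.0452 in limma) and so near the limit of 1 FPKM that the filter asked for. The call was lost in most of the alternative analyses. ST3GAL2 (0.14 log2), ST3GAL1 (-0.0045), ST6GALNAC4 (-0.09) and ST8SIA5 (-0.24) did not pass the test. The ST3GAL2 groups did not overlap, however, and the authors' deposited table gives it 0.20 log2 with an adjusted p of 0.00904. ST8SIA1, the GD3 synthase, and ST6GALNAC5 did not pass the filter on low values, which asked for at least 1 FPKM in at least 3 of the 21 libraries.

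**Figure D2:**
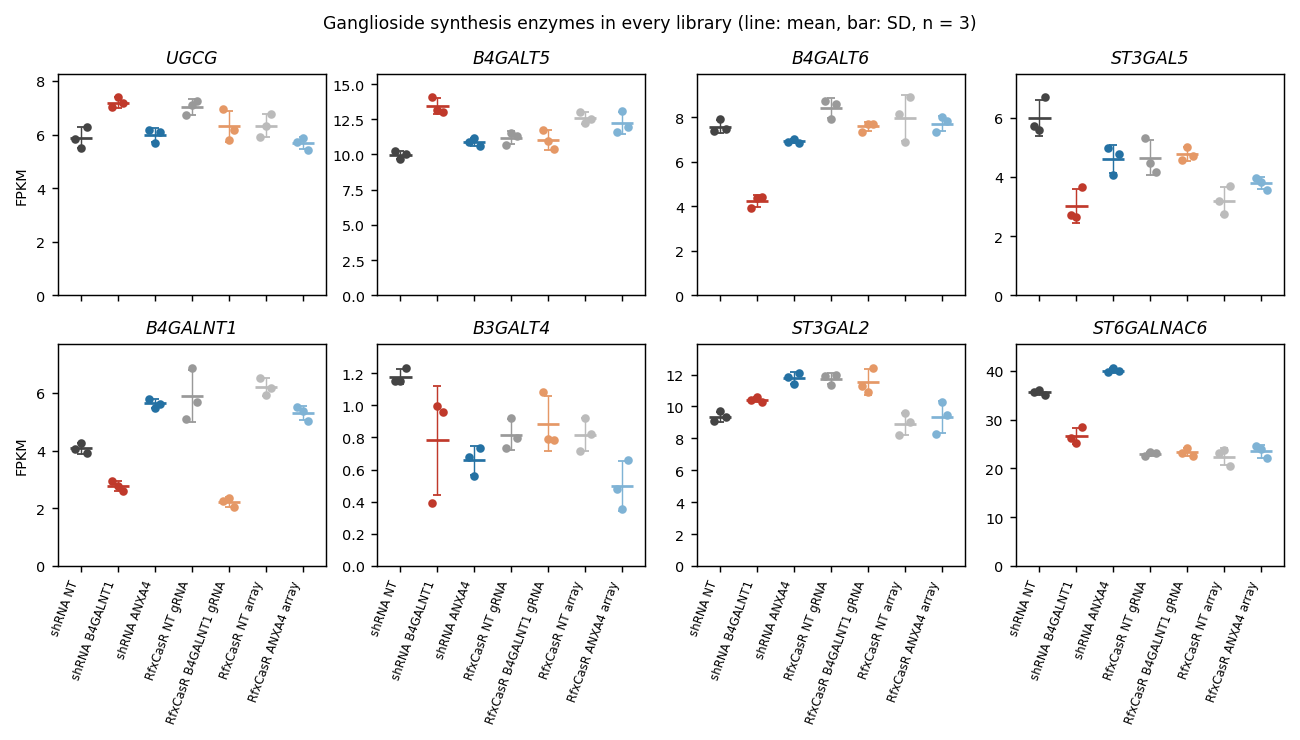
FPKM of 8 ganglioside synthesis genes in each of the 21 libraries (points), with the group mean (line) and SD (bar, n = 3). B4GALT6 was lowest with the B4GALNT1 shRNA, ST3GAL5 was highest with the NT shRNA, and B4GALNT1 was lower in both groups that targeted it.

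Of 5 homologs measured, B4GALNT3, which makes LacdiNAc on glycoproteins, was called higher (3.76, 4.25 and 4.37 FPKM against 7.08, 6.62 and 7.25 FPKM; 0.64 ± 0.070 log2, adjusted p = 4.82e-07 in limma), and the NT shRNA was its lowest group. The other 4 did not pass the test in this fit, with changes of -0.15 (CHPF) to 0.15 log2 (B4GALNT4). Under other scalings 2 homologs rose. Of 13 genes of lysosomal glycosphingolipid breakdown, 4 rose and 4 fell, beside 18.4% and 26.0% of all genes (median 0.0055 log2). The acid sphingomyelinase SMPD1 (4.02 to 2.22 FPKM, -0.64 log2) and the saposin precursor PSAP (264 to 205 FPKM, -0.36) fell. The sialidase NEU1 (34.3 to 44 FPKM, 0.35 log2), the alpha-galactosidase GLA (0.28) and the GM2 activator GM2A (0.25) rose, each with the NT shRNA as the lowest group.

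Across the transcriptome, 6077 of 13679 genes (44.4%) were called, 2523 higher and 3554 lower. The direction split depended on the scaling: 41.5% of calls were higher here, 53.3% after each library was centred on its median, 49.3% after quantile normalization and 50.2% with voom on recovered reads. Those scalings moved the median of all genes by at most 0.047 log2. In 7587 genes (55.5%) the 3 libraries of one group all lay above the 3 of the other. Most changes were small, since 31 genes rose and 32 fell by 1 log2 or more, and 5% of genes lay below -0.47 and 5% above 0.43 log2. The authors' deposited table gives 3200 genes higher (20.1%) and 3017 lower (18.9%) of 15924. It called 97.1% of the rises and 80.6% of the falls of this fit with the same sign.

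To place each change, the 6 libraries were set beside all others. Of genes called lower, 641 (18%) had the 3 B4GALNT1 shRNA libraries below all 18 others, against 4.99% of all genes tested. In 1122 (31.6%) the 3 NT shRNA libraries lay above all 18 others, against 9.25% of all genes. Of genes called higher, 279 (11.1%) had the B4GALNT1 shRNA libraries above all 18 others, against 2.54% of all genes, and 876 (34.7%) had the NT shRNA libraries below all 18, against 6.94%. The test and these positions use the same 6 libraries, so the shares describe the calls and are no further support for them.

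**Figure D3:**
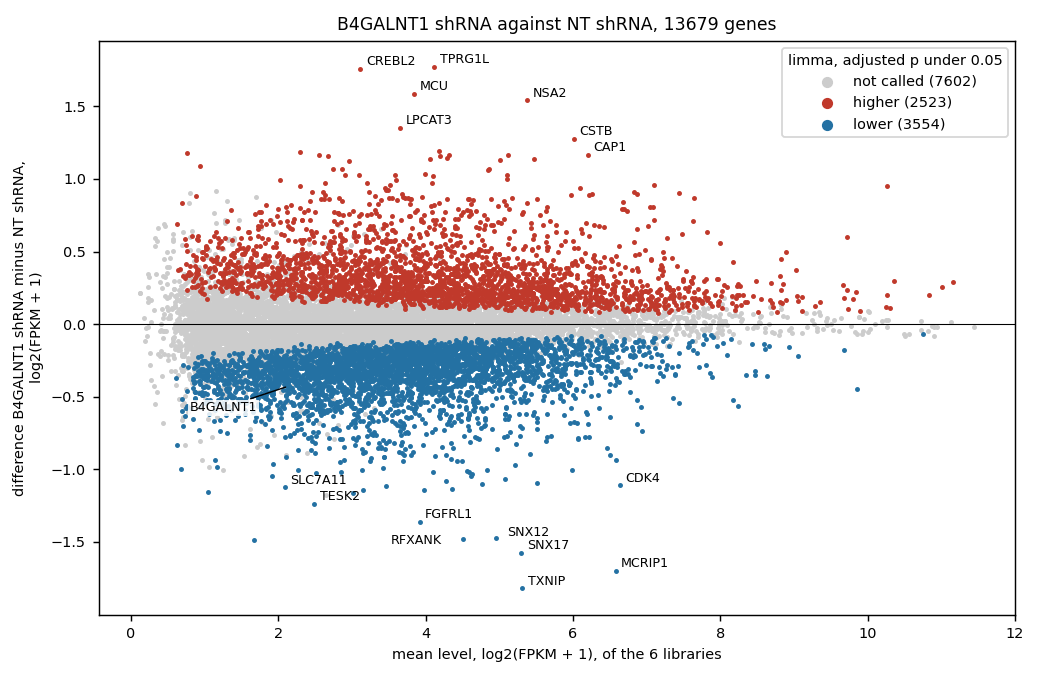
Difference between the B4GALNT1 shRNA and the NT shRNA (vertical, log2(FPKM + 1)) against the mean level of the 6 libraries (horizontal, same scale), one point per gene. Red marks the 2523 genes called higher, blue the 3554 called lower and grey the 7602 not called; B4GALNT1 lay at -0.43, far inside the range of the labelled genes.

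The deepest falls that put the B4GALNT1 shRNA below all 18 other libraries, beside that of TXNIP, were in MCRIP1, SNX17, RFXANK and SNX12. MCRIP1 (NM_207368, hg19 chromosome 17, 79780237 to 79791170, minus strand), a corepressor-interacting target of ERK, was at 138, 153 and 144 FPKM with the NT shRNA and at 42.5, 40.8 and 48.9 FPKM with the B4GALNT1 shRNA. No B4GALNT1 shRNA library came near the other 18, whose group means were 111 to 137 FPKM outside the NT shRNA. The mean was 69.6% lower (-1.70 ± 0.074 log2, adjusted p = 1.54e-12 in limma), and the difference from the ANXA4 shRNA was -1.62 log2.

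Sorting nexins carry PX domains that bind phosphoinositides on endosomes, and with retromer they return cargo such as receptors to the cell surface. SNX17 (NM_001267060, hg19 chromosome 2, 27593363 to 27600400, plus strand), which recycles integrins, went from 55.4, 61.5 and 56.9 FPKM to 18.8, 17.8 and 19.7 FPKM (-1.57 ± 0.065 log2, adjusted p = 8.85e-13 in limma). SNX12 (NM_001256188, hg19 chromosome X, 70279097 to 70288298, minus strand) went from 45.3, 45.9 and 43.2 FPKM to 14.8, 16.1 and 15.7 FPKM (-1.47 ± 0.046 log2, adjusted p = 2.39e-14 in limma). In both genes the NT shRNA libraries were also above all 18 others, and the other 5 group means were 40.0 to 49.9 FPKM for SNX17 and 31.1 to 37.1 FPKM for SNX12.

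Of 29 sorting nexin and retromer genes, SNX17 and SNX12 included, 14 fell and 5 rose, beside 26.0% and 18.4% of all genes (median -0.13 log2, against -0.038 for all genes). In 7 the B4GALNT1 shRNA lay below all 18 other libraries, beside 4.99% of all genes. VPS26A, a retromer subunit, fell from 25.6 to 13.7 FPKM (-0.85 log2), SNX15 from 26 to 16.6 (-0.62) and SNX33 from 6.67 to 4.62 (-0.45). SNX6 (-0.27 log2) and SNX1 (-0.30), which pair as membrane-bending subunits with their homologs, fell less. SNX11 (0.48 log2), SNX24 (0.38), SNX18 (0.22), VPS29 (0.22) and SNX5 (0.14) rose, and without the second NT shRNA library 2 genes of the list rose. SNX15 reads can be shared with the read-through gene ARL2-SNX15. VPS35, the core of retromer, did not pass the test (0.045 log2).

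RFXANK (NM_001278728, hg19 chromosome 19, 19303575 to 19312678, plus strand) is a subunit of the RFX complex, which binds the X box of MHC class II promoters. Its level was 32.2, 31.7 and 33.4 FPKM with the NT shRNA and 10.7, 11.4 and 10.9 FPKM with the B4GALNT1 shRNA (-1.48 ± 0.063 log2, adjusted p = 1.48e-12 in limma), with no overlap with any of the 18 other libraries. RFX5, the DNA-binding subunit, was lower too, at 14.9, 13.4 and 14.7 FPKM against 23.1, 23.3 and 23.7 FPKM (-0.67 ± 0.052 log2, adjusted p = 5.51e-09 in limma), while the third subunit RFXAP did not pass the test (-0.17 log2). Among the NF-Y subunits that bind beside RFX, NFYA fell (9.24 to 7.81 FPKM, -0.22 log2), and NFYB (0.19) and NFYC (0.18) rose. When any 1 of the 6 libraries was left out, 1 of the 7 genes of this list rose. CIITA, the class II coactivator, did not pass the filter. RFXANK was also at 21.8 FPKM with the B4GALNT1 gRNA against 28.3 with the NT gRNA, a difference of -0.36 log2 that was not called.

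Further genes with a marked fall below all 18 other libraries had varied roles. FKBP4, a cochaperone of HSP90 and steroid receptors, went from 124, 127 and 124 FPKM to 62.7, 65.5 and 66.5 FPKM (-0.94 ± 0.049 log2, adjusted p = 2.06e-11 in limma), whereas the other 5 group means were 123 to 135 FPKM. POLE3, a histone-fold subunit of DNA polymerase epsilon, fell from 61 to 28.1 FPKM (-1.10 log2) and EIF2AK1, the haem-regulated eIF2alpha kinase, from 48.1 to 24.1 (-0.97). PI4K2A, a phosphatidylinositol 4-kinase of endosomes, fell from 16 to 8.08 FPKM (-0.90 log2), and its level in the other 5 groups was 16.1 to 16.5 FPKM. TAF9B, a histone-fold subunit shared by TFIID-like complexes, fell from 14.2 to 6 FPKM (-1.12 log2), and PPT2, a lysosomal thioesterase whose reads can be shared with PPT2-EGFL8, from 31.3 to 15 (-1.02).

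FGFRL1, a fibroblast growth factor receptor that lacks the kinase domain, was also lower, at 7.1, 8.15 and 7.2 FPKM against 20.1, 22.2 and 20.2 FPKM (-1.36 ± 0.070 log2, adjusted p = 1.58e-11 in limma). All its B4GALNT1 shRNA libraries lay below all 18 others. Counting FGFRL1 and MCRIP1, which are named for the size of their falls, 6 of 15 genes of FGF reception and RAS-ERK feedback fell, beside 26.0% of all genes. FGFR1 rose (7.3 to 9.47 FPKM, 0.33 log2). FGFR2 (-0.26 log2), FGFR3 (-0.29), FGFR4 (-0.29) and SPRY2 (-0.21) made up the rest of the falls. The list median was 0.053 log2, and -0.26 where only genes of at least 5 FPKM in 3 libraries were kept. The ERK-induced genes DUSP4, DUSP6, ETV4 and ETV5 did not pass the test, with changes of -0.052 to 0.17 log2 and levels of at most 2.32 FPKM with the NT shRNA.

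TXNIP showed the largest fall among called genes whose groups did not overlap. It encodes an alpha-arrestin that binds thioredoxin and promotes uptake of glucose transporters into the cell, and the glucose-sensing factors MondoA and ChREBP with MLX drive its promoter. That promoter is shown because TXNIP led the falls and a glucose-responsive element could be located in it. It is the 250 bases before the start in RefSeq (GRCh38.p14, chr1:145996580-145996829, minus strand). Capitals mark the match to the carbohydrate response element, searched as CACGNG and CNCGNG with 5 bases between them, which lies 72 to 88 bases before the start.
TXNIP: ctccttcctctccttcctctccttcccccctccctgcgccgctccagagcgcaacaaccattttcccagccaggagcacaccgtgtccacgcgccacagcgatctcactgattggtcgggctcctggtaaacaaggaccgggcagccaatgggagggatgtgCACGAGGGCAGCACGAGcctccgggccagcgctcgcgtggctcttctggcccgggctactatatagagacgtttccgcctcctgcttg
The pattern, searched on both strands, was in 0.751% of the 9985 promoters of tested genes that could be matched, and in 1 of the 8 in the list of alpha-arrestins and MondoA partners.

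TXNIP (NM_006472, hg19 chromosome 1, 145438438 to 145442644, plus strand, a region turned around between the builds) was at 61.2, 60.3 and 61.3 FPKM with the NT shRNA and 17.7, 16 and 16 FPKM with the B4GALNT1 shRNA (-1.82 ± 0.054 log2, adjusted p = 1.14e-14 in limma). The B4GALNT1 shRNA libraries were below all 18 others, and the NT shRNA libraries were above all 18. The means in between were 27.5 FPKM with the ANXA4 shRNA, 29.4 with the NT gRNA, 29.9 with the B4GALNT1 gRNA, 38.2 in the ANXA4 array and 41.8 in the NT array. Against the ANXA4 shRNA the difference was -0.70 ± 0.054 log2, adjusted p = 3.87e-09 in limma. In the hg19 annotation of the file, 2 NBPF genes span TXNIP on the same strand.

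Of the 8 alpha-arrestins and MondoA partners, TXNIP included, 4 fell, 1 rose and 3 did not pass the test, beside 26.0% lower and 18.4% higher over all genes. ARRDC4 went from 17.5, 17.7 and 18.8 FPKM to 11.1, 11.3 and 10.7 FPKM (-0.66 ± 0.070 log2, adjusted p = 3.77e-07 in limma), and the NT shRNA libraries were again the highest of the series. ARRDC3 fell from 11.8 to 7.84 FPKM (-0.54 log2) and the glucose sensor MLXIP, also known as MondoA, from 14 to 11.2 (-0.29), while its partner MLX rose from 26.9 to 31.6 (0.22). The 6-base E-box CACGTG was in the promoters of ARRDC4, which fell, and MLX, which rose, of the 8 genes, and in 9.1% of all promoters. In the thioredoxin, glutathione and NRF2 list, 4 of 20 fell and 2 rose (5 rose and 2 fell after centring, which also turned the median from -0.011 to above 0). The cystine transporter SLC7A11, with 5.16, 4.72 and 4.61 FPKM and 1.91, 1.55 and 1.58 FPKM, led these falls (-1.12 ± 0.164 log2, adjusted p = 1.72e-05 in limma), and thioredoxin itself, TXN, did not pass the test (0.019 log2).

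Fewer rises than falls put the B4GALNT1 shRNA libraries outside all others. GALNT7, a GalNAc-transferase of mucin-type O-glycan synthesis, was at 11.9, 9.7 and 12.1 FPKM with the NT shRNA and 26.1, 26.2 and 25.8 FPKM with the B4GALNT1 shRNA (1.15 ± 0.058 log2, adjusted p = 1.33e-11 in limma). The other 5 group means were 18.7 to 20.9 FPKM, so both groups stood apart from them, on opposite sides. IREB2, the iron regulatory protein that binds iron-responsive elements, rose from 23.5, 23.4 and 22.9 FPKM to 34.8, 33.9 and 32.9 FPKM (0.52 ± 0.043 log2, adjusted p = 1.22e-08 in limma), and the NT shRNA lay within the other 5 group means of 20.9 to 26.1 FPKM.

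ARIH1, a RING-between-RING ubiquitin ligase, rose from 27.8 to 35.2 FPKM (0.33 log2) and PIH1D1, a subunit of the R2TP cochaperone of HSP90, from 77.8 to 105 (0.43). PFKP, the platelet-type phosphofructokinase of glycolysis, rose from 69.3 to 93.4 FPKM (0.43 log2). NHLRC3 (0.45 log2), LINC01963 (0.69), LOC100506548 (0.50) and SRGAP2B (0.72) were also above all 18 others; SRGAP2B is a near-identical copy of SRGAP2 and SRGAP2C, so its reads are uncertain. PLAG1, a zinc finger transcription factor, rose from 1.92 to 3.38 FPKM (0.59 log2).

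Among the largest rises, the NT shRNA libraries were usually the low group. CREBL2, a small bZIP protein, was at 3.2, 2.54 and 3.14 FPKM with the NT shRNA and 12.8, 12.1 and 12.2 FPKM with the B4GALNT1 shRNA (1.76 ± 0.060 log2, adjusted p = 6.91e-14 in limma), and all other libraries lay in between, with group means of 8.39 to 10.7 FPKM. MCU, which forms the channel that takes calcium into mitochondria, was at 6.25, 5.99 and 6.32 and 20.7, 21.7 and 19.3 FPKM (1.58 ± 0.045 log2, adjusted p = 9.36e-15 in limma), and here the B4GALNT1 shRNA lay within the range of the other groups (17.6 to 20.9 FPKM). CSTB, an inhibitor of cathepsins, went from 36.6 to 90.1 FPKM (1.27 log2), and the other 5 group means were 81.3 to 149 FPKM.

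TPRG1L, a presynaptic vesicle protein, had 6.74, 7.13 and 6.74 FPKM with the NT shRNA and 26.2, 27 and 24.4 FPKM with the B4GALNT1 shRNA (1.77 ± 0.048 log2, adjusted p = 7.77e-15 in limma). Its mean with the ANXA4 shRNA, 24.9 FPKM, was close to that with the B4GALNT1 shRNA, and the 4 RfxCasR groups lay between them and the NT shRNA, at 13.6 to 15.7 FPKM. FYCO1, an adaptor for the transport of autophagosomes, had the same order, with 2.62 FPKM with the NT shRNA, 3.36 to 4.29 in the RfxCasR groups, 6.92 with the ANXA4 shRNA and 7.1 with the B4GALNT1 shRNA (1.16 log2). GNE, the enzyme that makes ManNAc for sialic acid synthesis, rose from 3.03, 2.95 and 2.92 FPKM to 8.38, 7.68 and 7.55 FPKM (1.16 ± 0.067 log2, adjusted p = 8.98e-11 in limma), above all 18 other libraries, with the other 5 group means at 4.54 to 7.1 FPKM. SQSTM1, the autophagy receptor p62, rose from 20.4 to 46.8 FPKM (1.16 log2; other groups 41.7 to 48.7 FPKM), and MELK, a mitotic kinase, from 11.3 to 26.4 (1.16; other groups 22 to 26.4 FPKM).

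The mirror case, with the NT shRNA as the high group, held for falls such as PTBP2 and MXD3. PTBP2, the neuronal splicing regulator, was at 25.3, 26.8 and 23.6 FPKM with the NT shRNA and 11.5, 11.5 and 11.1 FPKM with the B4GALNT1 shRNA (-1.08 log2), and the other 5 group means were 9.42 to 14.1 FPKM. MXD3, a MAX-binding antagonist of MYC, fell from 13.1 to 6.51 FPKM (-0.91 log2; other groups 4.92 to 6.3 FPKM). CDK4, the cyclin D-dependent kinase, differed from both patterns. It was at 132, 143 and 132 FPKM with the NT shRNA and 58.8, 61.9 and 66.1 with the B4GALNT1 shRNA (-1.11 ± 0.057 log2, adjusted p = 1.85e-11 in limma), at 64.4 with the ANXA4 shRNA, and at 144 to 179 FPKM in the RfxCasR groups. The difference of CDK4 between the 2 targeting hairpins was not called (-0.05 log2).

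Short annotations inside longer genes need care. SNORD124, inside MED24 on the same strand, had 2.03, 1.73 and 0.406 FPKM with the B4GALNT1 shRNA, while each of the 3 NT shRNA libraries listed it at 0. MIR4639, inside MYLIP, was at 1.21, 3.88 and 0.636 FPKM and at 0, 0 and 0.609 FPKM, with the highest value in 1 NT library. MIR4707, inside HAUS4, fell from 27.4 to 11.8 FPKM (-1.13 log2). Reads of these cannot be told apart from reads of the host gene.

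Cholesterol synthesis takes acetyl-CoA through mevalonate, squalene and lanosterol, and SREBF2 drives most of its genes when sterols are low. Of 24 genes of cholesterol synthesis and uptake measured, 16 rose and 2 fell, beside 18.4% and 26.0% of all genes (median 0.26 log2, against -0.038). In 12 of them the NT shRNA lay below all 18 other libraries, beside 6.94% of all genes. HMGCS1, the mevalonate pathway synthase, was at 35.5, 34.8 and 36 FPKM with the NT shRNA and 62.3, 61.1 and 61.2 FPKM with the B4GALNT1 shRNA (0.78 ± 0.050 log2, adjusted p = 3.47e-10 in limma). Its level was 29.9 FPKM with the ANXA4 shRNA and 45.7 to 63 FPKM in the RfxCasR groups, and the B4GALNT1 shRNA mean was near the upper end of the latter.

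INSIG1, the sterol sensor that retains the SREBP complex, rose from 77.5 to 134 FPKM (0.78 log2), and MSMO1, a sterol C4 demethylase, from 41 to 66.5 (0.68). FDFT1, squalene synthase, rose from 91.1 to 135 FPKM (0.56 log2), and SREBF2 itself from 34.9 to 50.2 (0.51). LSS, lanosterol synthase, went the other way, at 32.6, 35 and 33.1 FPKM against 21.3, 19.4 and 20.4 FPKM (-0.70 ± 0.041 log2, adjusted p = 1.28e-10 in limma), below all 18 other libraries. PMVK was the other fall (39.7 to 34.4 FPKM, -0.20 log2).

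Promoters of this list are shown because 16 of its 24 members rose. The CCAAT box, CCAAT on either strand, is bound by NF-Y beside SREBP sites. It was in 15 of the 18 promoters of the list that could be matched, against 35.4% of all 9985 promoters of tested genes, within 250 bases before the start. Of the 15, 9 rose and 1, LSS, fell, so that the box was in promoters of either direction. The sterol regulatory element TCACNCCAC was in 1 of 18, SREBF2, against 0.841% of all promoters. Matches are in capitals (RefSeq, GRCh38.p14): MSMO1 at chr4:165327419-165327668 on the plus strand, with 4 boxes in 250 bases, HMGCS1 at chr5:43313496-43313579 on the minus strand, with 2 boxes, INSIG1 at chr7:155297696-155297724 on the plus strand, with 1 box, and SREBF2 at chr22:41832960-41833015 on the plus strand, with the sterol element first and a box second.
MSMO1: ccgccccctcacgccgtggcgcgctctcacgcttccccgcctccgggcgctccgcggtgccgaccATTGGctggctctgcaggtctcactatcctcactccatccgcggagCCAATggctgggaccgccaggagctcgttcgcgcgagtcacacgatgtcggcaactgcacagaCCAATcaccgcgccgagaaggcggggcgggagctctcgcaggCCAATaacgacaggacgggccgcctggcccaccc
HMGCS1: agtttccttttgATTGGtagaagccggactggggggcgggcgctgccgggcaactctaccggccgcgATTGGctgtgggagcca
INSIG1: cgccggcctcccATTGGttgcggccgcct
SREBF2: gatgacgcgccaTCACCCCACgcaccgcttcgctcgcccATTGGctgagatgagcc
A match is a description of these letters and not a measured site.

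Of 29 glycolysis and hypoxia genes, 17 rose and 2 fell, beside 18.4% higher and 26.0% lower over all genes (median 0.20 log2). ALDOA, aldolase A, was at 820.0, 849 and 828 FPKM with the NT shRNA and 1565, 1580.4 and 1694 FPKM with the B4GALNT1 shRNA (0.95 ± 0.042 log2, adjusted p = 1.72e-12 in limma), and the NT shRNA was its lowest group. NDRG1 rose from 41.8 to 65.7 FPKM (0.64 log2), LDHA from 668 to 1015 (0.60) and the glucose transporter SLC2A1, internalised with the help of TXNIP, from 57.4 to 73 (0.34). SLC2A1, HK1 and PFKP were above all 18 other libraries. PFKL (-0.32 log2) and HK2 (-0.27) fell, and TPI1 (0.035), PGK1 (0.039) and VEGFA (0.046) did not pass the test.

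Of 20 cytosolic heat shock proteins and cochaperones, 11 rose, 4 fell and 5 did not pass the test, beside 18.4% higher and 26.0% lower over all genes (median 0.13 log2). DNAJB1, an HSP40, was at 51, 51.8 and 51 FPKM against 92.7, 98.8 and 95.5 FPKM (0.89 ± 0.037 log2, adjusted p = 1.3e-12 in limma), close to the 97.3 FPKM of the ANXA4 shRNA. HSPA8, the constitutive HSC70, rose from 383 to 524 FPKM (0.45 log2) and HSP90AA1 from 735 to 887 (0.27). HSPA1A and HSPA1B (0.26 and 0.26 log2) are near-identical and share reads. Beside FKBP4, the falls were CHORDC1 (-0.44 log2), SERPINH1 (-0.24) and the master regulator HSF1 (56.1 to 42.6 FPKM, -0.39).

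The heat shock element, searched on both strands as 3 alternating units of GAA and TTC with 2 bases between neighbours, was in 3 of 18 matched promoters of the list, against 0.290% of all. HSPA8, which rose, held 2 matches, and the others were CHORDC1 and SERPINH1, which fell. The HSPA8 stretch is shown with both elements in capitals (RefSeq, GRCh38.p14, chr11:123062167-123062378, minus strand).
HSPA8: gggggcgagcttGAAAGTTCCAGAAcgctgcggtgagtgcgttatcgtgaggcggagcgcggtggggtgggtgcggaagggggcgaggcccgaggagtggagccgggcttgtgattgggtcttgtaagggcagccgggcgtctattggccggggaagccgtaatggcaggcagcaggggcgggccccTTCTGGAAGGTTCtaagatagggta
Of 20 genes of the unfolded protein response, 7 rose, 2 fell and 11 did not pass the test, beside 18.4% higher and 26.0% lower over all genes. HSPA5, the ER chaperone BiP, rose from 126 to 173 FPKM (0.46 log2) to above all 18 other libraries, as did HERPUD1 (0.39). DNAJB9 rose from 2.83 to 6.13 FPKM (0.91 log2) and MANF from 53.9 to 68.5 (0.34), EDEM1 (-0.31) and HYOU1 (-0.15) fell, and XBP1 did not pass the test (0.076).

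Proteasome subunits rose in 19 of 31 cases and fell in 4 (1 fall after centring or with voom), beside 18.4% and 26.0% of all genes, with a median of 0.15 log2. PSMA6 was at 44.9, 46.8 and 46.2 FPKM with the NT shRNA and 87.3, 94.1 and 85.4 FPKM with the B4GALNT1 shRNA (0.93 ± 0.041 log2, adjusted p = 1.61e-12 in limma). For this and 9 more subunits the NT shRNA lay below all 18 other libraries, beside 6.94% of all genes. The catalytic subunits PSMB6 (0.45 log2), PSMB5 (0.40) and PSMB7 (0.20) rose, and PSMD2 (-0.24), PSMD6 (-0.14), PSMC3 (-0.12) and PSMC5 (-0.12) of the regulatory particle fell.

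Of 25 targets of p53 measured, 13 fell, against 26.0% of all genes, and the other 12 did not pass the test (1 rose without the second NT shRNA library), with a median of -0.19 log2. Large T antigen binds p53 in this line. MDM2, the ubiquitin ligase of p53, was at 12.2, 11 and 11.9 FPKM with the NT shRNA and 7.83, 7.65 and 7.63 FPKM with the B4GALNT1 shRNA (-0.54 ± 0.062 log2, adjusted p = 8.41e-07 in limma), below all 18 other libraries. RRM2B (7.25 to 5.19 FPKM, -0.41 log2), TP53INP1 (1.82 to 0.933, -0.54), ZMAT3 (1.39 to 0.709, -0.48) and TRIAP1 (36.1 to 30.4, -0.24) were below all 18 others too. DDB2 (-0.52 log2), BBC3 (-0.41) and BAX (-0.25) fell with the NT shRNA as the highest group. CDKN1A, the p21 inhibitor, did not pass the test (7.5 to 6.86 FPKM, -0.11 log2).

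Members of the list for the integrated stress response and the supply of amino acids were lower where they were called: 12 of 22 fell, against 26.0% of all genes, and 10 did not pass the test (median -0.14 log2). Against the ANXA4 shRNA, by contrast, 11 of the 22 were higher and 2 lower in the B4GALNT1 shRNA libraries (19.6% and 27.1% of all genes). SLC7A1, an arginine transporter, fell from 23.5 to 15.5 FPKM (-0.56 log2; 14.9 FPKM with the ANXA4 shRNA), CHAC1 from 6.17 to 3.84 (-0.57) and DDIT4 from 258 to 205 (-0.33). ATF4, the transcription factor at the centre of the response, fell from 227 to 207 FPKM (-0.14 log2), and ASNS (-0.11) and DDIT3 (-0.056) did not pass the test.

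Of 25 S phase genes 9 fell and 1 rose (4 rose after centring or with voom), beside 26.0% and 18.4% of all genes, with a median of -0.078 log2. MCM5, of the replicative helicase, was at 90.4, 93.2 and 84.6 FPKM with the NT shRNA and 51.1, 53.7 and 50.5 FPKM with the B4GALNT1 shRNA (-0.78 ± 0.045 log2, adjusted p = 8.54e-11 in limma), and RFC4, of the clamp loader, at 42, 41.1 and 41.5 and 26.3, 25.2 and 26.6 FPKM (-0.65 log2). Both were below all 18 other libraries, the only 2 of the 25 so placed, beside 4.99% of all genes. The gap to the nearest other library was small, at 0.020 log2 for MCM5 and 0.0036 for RFC4. In 7 of the 25 the NT shRNA lay above all 18 others, beside 9.25% of all genes. CCNE1 (0.19) and PCNA (-0.041) did not pass the test.

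Of 24 G2 and mitosis genes 12 fell and 2 rose (4 rose after centring), beside the same shares of all genes, with a median of -0.20 log2. CDK1 (86.2 to 56.3 FPKM, -0.61 log2) and cyclin A, CCNA2 (61.4 to 42 FPKM, -0.54), fell below all 18 other libraries. They were the only 2 of the 24 to do so (4.99% of all genes), while in 5 the NT shRNA lay above all 18 others (9.25% of all genes). Cyclin B1, CCNB1, rose from 72.6 to 91.7 FPKM (0.33 log2), with the NT shRNA as its lowest group, and PLK1 (-0.0028), AURKB (-0.047) and MKI67 (0.14) did not pass the test.

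Of 75 mitochondrial ribosomal proteins, 37 rose and 6 fell, beside 18.4% and 26.0% of all genes (median 0.17 log2). In 24 of the 75 the NT shRNA lay below all 18 other libraries, beside 6.94% of all genes. MRPS18B rose from 38.1, 34.9 and 33.5 FPKM to 64, 60.5 and 63.8 FPKM (0.81 ± 0.045 log2, adjusted p = 5.86e-11 in limma), with the other 5 group means at 63.7 to 71.4 FPKM. The 6 falls ran against the rest, and 5 of them put the B4GALNT1 shRNA below all 18 others, beside 18% of all genes called lower. These were MRPS27 (31.4 to 19.2 FPKM, -0.68 log2), MRPL10 (54.7 to 34.6, -0.64), MRPS26 (97.2 to 64.9, -0.58), MRPL13 (-0.31) and MRPS9 (-0.22). Against the ANXA4 shRNA 7 of the 75 were higher and 31 lower, beside 19.6% and 27.1% of all genes.

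Oxidative phosphorylation subunits rose in 13 of 47 cases and fell in 5, beside 18.4% and 26.0% of all genes (8 rises without the third NT shRNA library). ATP5O (120.0 to 225 FPKM, 0.90 log2) and SDHD (23.6 to 42.5, 0.82) rose most, and UQCRC2 (85.3 to 64.2, -0.41) fell below all 18 other libraries. In 11 of the 47 the NT shRNA lay below all 18 others, beside 6.94% of all genes. Cytosolic ribosomal proteins were mostly not called: 7 of 77 rose and 5 fell, with a median of -0.031 log2, but 2 rose and 29 fell after quantile normalization and the median turned to 0.016 log2 after centring. RPL34 was the exception in size, at 346, 348 and 325 FPKM against 235, 232 and 242 FPKM (-0.52 ± 0.034 log2, adjusted p = 5.01e-10 in limma), below all 18 other libraries. Reads of ribosomal protein genes can be shared with processed pseudogenes.

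**Figure D4:**
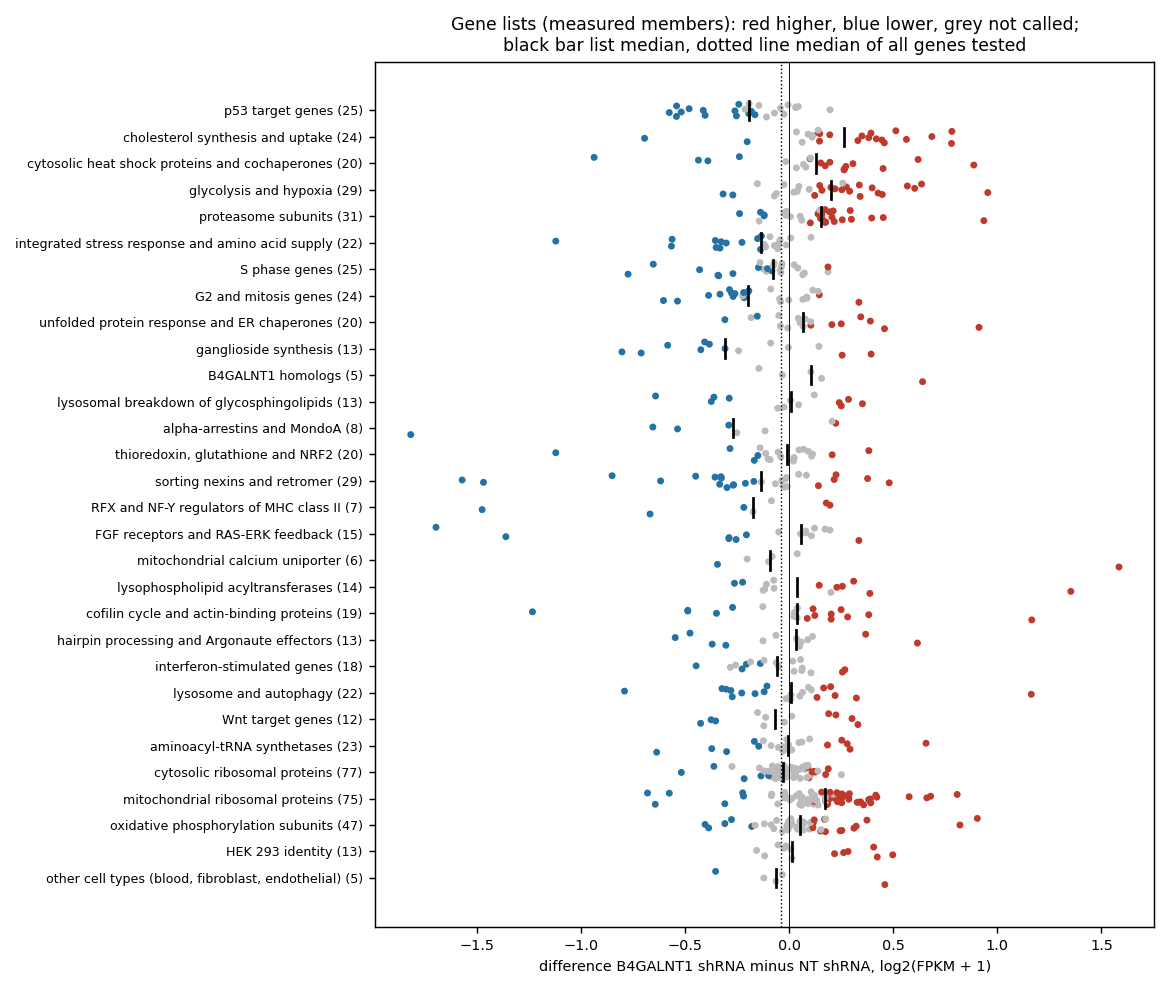
Difference between the B4GALNT1 shRNA and the NT shRNA (horizontal, log2(FPKM + 1)) for each measured member of 30 gene lists, with the number measured in brackets. Red points were called higher, blue lower and grey not called; black bars are list medians, from -0.31 for ganglioside synthesis to 0.26 for cholesterol, and the dotted line is the median of all genes, -0.038.

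Of 13 genes of the machinery that processes and uses hairpins, 4 fell and 2 rose, shares near the 26.0% and 18.4% of all genes. DICER1 rose from 10.1, 9.17 and 10.4 FPKM to 16.7, 15.5 and 14.8 FPKM (0.62 ± 0.054 log2, adjusted p = 2.86e-08 in limma), with the NT shRNA as the lowest group, and TNRC6B rose (0.37 log2). The export factor XPO5 fell from 40.0 to 30.7 FPKM (-0.37 log2) to below all 18 other libraries, where the ANXA4 shRNA had 50.5 FPKM. AGO3 (5.51 to 3.45 FPKM, -0.55 log2), TNRC6C (-0.48) and DGCR8 (-0.31) fell. AGO2, the Argonaute that can cut its target, did not pass the test (16.5 to 16.9 FPKM, 0.034 log2), nor did AGO1 (0.088) or DROSHA (0.048). Of 18 interferon-stimulated genes measured, 2 rose and 4 fell (2 fell after quantile normalization), beside 18.4% and 26.0% of all genes. First by p were IFITM3 (9.49 to 6.73 FPKM, -0.45 log2) and OAS3 (3.02 to 3.83, 0.27). ISG15 (0.022) and IFIT1 (0.10) did not pass the test, and IFIT2, IFIT3 and MX1 did not pass the filter.

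Among actin regulators around cofilin, 9 of 19 rose and 5 fell, beside 18.4% and 26.0% of all genes. CAP1, which recycles actin with cofilin, was at 44.7, 46.5 and 42.3 FPKM with the NT shRNA and 104, 99.6 and 99.1 FPKM with the B4GALNT1 shRNA (1.17 ± 0.033 log2, adjusted p = 9.36e-15 in limma). TESK2, a kinase that phosphorylates cofilin, went the other way, at 7.28, 7 and 6.41 against 2.49, 2.1 and 2.48 FPKM (-1.24 ± 0.077 log2, adjusted p = 2.5e-10 in limma), below all 18 other libraries. The cofilin phosphatases SSH1 (-0.49 log2) and SSH2 (-0.49) and the kinase LIMK2 (-0.35) fell, and CFL1 itself rose slightly (424 to 449.6 FPKM, 0.086 log2).

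Of 14 lysophospholipid acyltransferases, 6 rose and 2 fell, beside 18.4% and 26.0% of all genes. LPCAT3, which puts polyunsaturated chains into phospholipids, was at 6.4, 5.69 and 6.12 FPKM with the NT shRNA and 17.3, 17.4 and 16.4 FPKM with the B4GALNT1 shRNA (1.35 ± 0.061 log2, adjusted p = 2.41e-12 in limma), and the other 5 group means were 15.4 to 22.4 FPKM. LPCAT1 (33 to 43.5 FPKM, 0.39 log2) and AGPAT5 (11.3 to 14.2 FPKM, 0.31 log2) rose less, and AGPAT3 fell (14.4 to 11.8 FPKM, -0.26 log2). In the list around MCU, 1 of 6 rose and 1 fell, and MICU2 (-0.10 log2), SMDT1 (-0.083) and MCUR1 (0.037) did not pass the test.

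A second hairpin allowed the B4GALNT1 shRNA to be set against a targeting rather than a non-targeting one. Against the ANXA4 shRNA, 6384 genes (46.7%) differed, 2680 higher (19.6%) and 3704 lower (27.1%) in the B4GALNT1 shRNA libraries (limma, adjusted p under 0.05). MCRIP1 (-1.62 log2), RFXANK (-1.27), SNX17 (-1.26), SNX12 (-1.21) and FGFRL1 (-1.20) were lower than with the ANXA4 shRNA. TPRG1L (0.055), NSA2 (-0.014), MKRN2 (-0.065) and SQSTM1 (-0.057) did not pass this test. Among the lists, cholesterol genes were 6 higher and 8 lower of 24, cytosolic ribosomal proteins 51 higher and 1 lower of 77, S phase genes 17 higher of 25, and p53 targets 6 higher and 13 lower of 25. This comparison shares the B4GALNT1 shRNA libraries with the one above, so the values stand side by side only.

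RfxCasR with a B4GALNT1 gRNA lowered the same target by another route. Against its own NT gRNA, B4GALNT1 changed by -1.09 log2 and was the 1 gene called of 13679 (0.00731%). The range of change was -1.17 to 1.39 log2 with the guide and -1.82 to 1.77 log2 with the shRNA, but the middle 90% of genes lay within -0.14 to 0.13 log2 with the guide and -0.47 to 0.43 with the shRNA. The test of the difference between the 2 changes called 4078 genes (29.8%), 1760 higher (12.9%) and 2318 lower (16.9%) with the shRNA. For B4GALNT1 itself the shRNA change was smaller in size by 0.67 log2 (0.67 ± 0.106 log2, adjusted p = 9.12e-05 in limma).

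None of the genes named here beside B4GALNT1 was called with the guide. RFXANK came nearest, at -0.36 ± 0.063 log2 (adjusted p = 0.0849 in limma), outside the middle 90% of genes with the guide, and the difference between methods was -1.11 log2. MCRIP1 was at 120.5 ± 5.39 FPKM (SD, n = 3) with the B4GALNT1 gRNA and 125 ± 2.02 with the NT gRNA (-0.052 log2), and the difference between methods was -1.65 ± 0.104 log2, adjusted p = 1.15e-09 in limma. TXNIP was at 29.9 ± 2.37 and 29.4 ± 1.39 FPKM (0.022 log2; difference between methods -1.84 log2), and SNX17 at 48.9 ± 1.84 and 49.9 ± 1.66 (-0.029; -1.54). CREBL2 (-0.018 log2 with the guide, 1.78 between methods), MCU (0.11, 1.47) and TPRG1L (-0.029, 1.80) differed upward between methods. Of the 13 ganglioside genes 3 differed upward and 4 downward between methods, beside 12.9% and 16.9% of all genes. The upward ones were B4GALT5 (0.41 log2), UGCG (0.39) and B4GALNT1 itself, which fell with both methods and less with the shRNA. The downward ones included ST3GAL5 (-0.84 ± 0.144 log2, adjusted p = 0.000198 in limma) and B4GALT6 (-0.58 log2). Of the cholesterol genes 13 of 24 differed upward and 2 downward, 9 of the 25 p53 targets differed downward, and of the sorting nexin and retromer genes 2 of 29 differed upward and 13 downward. Each contrast used its own NT group, and the NT hairpin and NT guide libraries also differ in carrying RfxCasR, so the method and the control cannot be told apart in these counts.

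**Figure D5:**
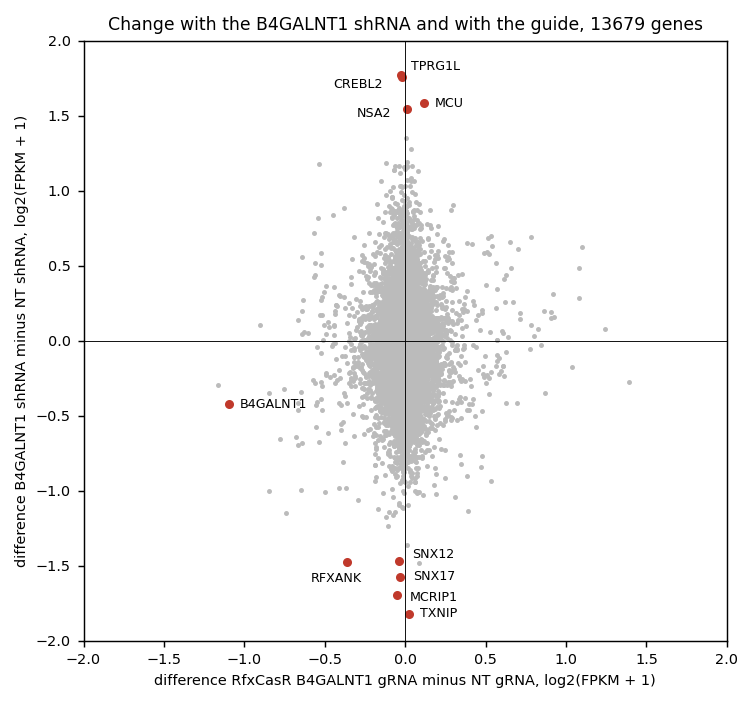
Change with the B4GALNT1 shRNA against the NT shRNA (vertical) and with the RfxCasR B4GALNT1 gRNA against its NT gRNA (horizontal), both as log2(FPKM + 1) differences, one point per gene for 13679 genes. Most points spread along the vertical axis; B4GALNT1 sits at -1.09 with the guide and -0.43 with the shRNA.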

How the data were processed

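The authors deposited 1 table of FPKM values for 21 libraries. Per the file headers, HOMER counted exon reads on the sense strand. Per the submitters' processing notes, DESeq2 1.14.1, R 3.3.2, STAR, HOMER and FastQC were used, with hg19. The authors' deposited comparison table gives log2 fold changes and adjusted p-values; it serves only as an alternative. Reads recovered from FPKM and exon length came out whole within 0.1 for 96.7% to 100.0% of values and gave depth (22.7 to 29.0 M reads in the 6 libraries, 21.4 to 39.5 M over all 21).

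The test covered genes that reached 1 FPKM in 3 or more of the 21 libraries (13679 of 27142). Differences are of log2(FPKM + 1), so those of low genes are understated. limma 3.58.1 in R 4.3.3 fitted 7 groups of 3 libraries with an intensity trend, and Benjamini-Hochberg adjusted p under 0.05 was called, for each of the contrasts over all genes. Tested on simulated data of 13679 genes for this comparison, the fit recovered 40%, 88%, 96% and 98% of changes of 0.25, 0.5, 1 and 1.5 log2, with 8 false calls among 169. The simulation drew independent normal noise and changed 50 genes at each size, far fewer than the 6077 called in the data. Its rates need not hold for the real comparison. Other steps used Python 3.11.15, pandas 2.3.3 and matplotlib 3.10.9.

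Genes named were B4GALNT1, the 15 called genes that rose most and the 15 that fell most without overlap of the groups, and genes where the B4GALNT1 shRNA (10 a direction) or the NT shRNA (5 a direction) lay farthest outside all 18 other libraries. To these were added up to 4 called members with the smallest p in each of 30 lists, 5 genes a direction for the difference from the guide, and every ganglioside synthesis gene; further list members were named after their values were seen, and a few members are not reported here. The members and lists were chosen with earlier results of these data known. Some lists hold genes named for their own large change, so list counts set beside all genes are descriptions and no further support. Promoters are from RefSeq on GRCh38.p14, matched by symbol for 9985 genes, and searched over 250 bases before the start; gene coordinates are hg19. The alternatives were other filters, pseudocount, scalings, variance models, samples, a replicate block, voom and each library left out; a fit without the array libraries was added after seeing the data.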

Additional observations from a re-analysis of the deposited data

Results flagged for a closer look

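The results here differed between the 2 ways of lowering B4GALNT1, by the limma test of the shRNA change minus the guide change. That test called 4078 of 13679 genes (29.8%). B4GALNT1 itself differed by 0.67 log2, since it fell by 1.09 with the guide and by 0.43 with the shRNA. TPRG1L (1.80 log2), CREBL2 (1.78), NSA2 (1.53) and MCU (1.47) differed upward, and in all 4 the NT shRNA libraries lay below all 18 other libraries of the series. TXNIP (-1.84 log2), MCRIP1 (-1.65), SNX17 (-1.54) and SNX12 (-1.44) differed downward, and in all 4 the B4GALNT1 shRNA libraries lay below the 18 others. Further differences were in SNORD124 (1.72 log2, listed at 0 in the NT shRNA libraries) and MIR4707 (-1.53 log2), both inside longer genes on the same strand. Each change was measured against its own NT group, so the method and its control cannot be told apart.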

How the results depend on the processing

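No main result changed its direction or its side of the threshold in any alternative that gave a value, and both counts of called genes stayed within 1.5 times 2523 and 3554. With 1 library left out, 2184 to 2261 genes were higher and 3073 to 3196 lower, and the B4GALNT1 difference was -0.46 to -0.39 log2. The difference from the guide was 0.57 to 0.75 log2 for B4GALNT1 and called 3576 to 3742 genes, and 5664 to 5772 genes differed from the ANXA4 shRNA. Of 2634 values for 156 named genes, 26 lost and 8 gained their call, and none that was called in either fit changed direction. Changes of sign where neither fit called the gene were not counted, as for ST3GAL1 (-0.0045 log2 here, 0.037 in the authors' deposited table). A call was lost for B3GALT4, ACTA2, IFI6, IFIT5 and RPS13 (quantile normalization). The same held for MIR4639 (without the second NT shRNA library) and SNORD124 (without the first or the second B4GALNT1 shRNA library). The cause was not tested. Without the array libraries in the fit, an alternative chosen after seeing the data, 2778 genes were higher and 3908 lower, and 4808 differed from the guide. With a replicate block 2537 genes were higher and 3562 lower, B4GALNT1 was at -0.43 log2 (adjusted p = 0.000152 in limma), and 4128 genes differed from the guide. Libraries of equal number deviated together with correlations of 0.0013, -0.011 and 0.017, and not every library correlated best with its own number. These values cannot show whether libraries of equal number were prepared together, which the labels do not say. Low genes had a larger SE: the median was 0.108 log2 in the lowest of 4 equal sets of genes by level and 0.047 in the highest. The part of depth in this was not tested.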

Other observations

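Lysosome and autophagy genes split in direction: 9 of 22 fell and 6 rose (26.0% and 18.4% of all genes; 5 fell with voom). UVRAG, a subunit of the class III phosphatidylinositol 3-kinase complex of endosomes, was at 8.46, 8.03 and 8.14 FPKM with the NT shRNA and 4.45, 4.43 and 4.07 FPKM with the B4GALNT1 shRNA (-0.79 ± 0.064 log2, adjusted p = 8.83e-09 in limma). The NT shRNA libraries lay above all 18 others, and the other 5 group means were 4.52 to 6.08 FPKM. The transcription factors TFE3 (18.6 to 14.9 FPKM, -0.30 log2) and MITF (3.55 to 2.63 FPKM, -0.32 log2) fell, TFEB did not pass the test (0.11 log2), and the protease CTSD (105 to 86.9 FPKM, -0.27 log2) fell below all 18 other libraries. CTSA (0.32 log2), CTSZ (0.22) and the proton pump subunits ATP6V0D1 (0.16) and ATP6V1H (0.20) rose, the last pair above all 18 other libraries.

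Of 23 aminoacyl-tRNA synthetases, which charge transfer RNAs, 5 were higher and 5 lower, shares near the 18.4% and 26.0% of all genes. SARS rose from 90.3, 89.3 and 89.1 FPKM to 142, 145 and 139 FPKM (0.66 ± 0.031 log2, adjusted p = 4.89e-12 in limma), while AARS fell from 107, 111 and 109 FPKM to 67.9, 70.9 and 70.4 FPKM (-0.64 ± 0.058 log2, adjusted p = 4.12e-08 in limma). The other 5 group means were 124 to 146 FPKM for SARS and 56.7 to 75 FPKM for AARS. GARS (107 to 82.2 FPKM, -0.37 log2) and CARS (39.7 to 32.1 FPKM, -0.30 log2) fell too. Of 12 Wnt target genes 4 rose and 3 fell, beside 18.4% and 26.0% of all genes. LEF1 (7.07 to 5.33 FPKM, -0.35 log2), TCF7 (11.3 to 8.49, -0.38) and RNF43 (4.07 to 2.77, -0.43) were lower. MYC (33.1 to 37.8, 0.19) and CCND1 (7 to 8.33, 0.22) were higher, and AXIN2 did not pass the test (-0.12 log2).

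By kind of gene, 2447 of 12255 protein-coding genes rose and 3329 fell, beside 18.4% and 26.0% of all genes. Of 259 pseudogenes 15 rose and 68 fell, and of 1000 non-coding RNAs 55 rose and 149 fell. For pseudogenes the share of falls was near that of all genes, and for non-coding RNAs it was lower. The share of rises was lower than that of all genes in both kinds. The part of level in these counts was not tested. The direction also varied with level: in the highest of 4 equal sets of genes by mean FPKM 29.7% were called higher and 25% lower, and in the lowest set 8.95% and 17.6%.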
